A study of Mus musculus with 6 samples.

Results

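The genes described here encode the kinases, the receptor, the adaptor and the caveolar proteins through which the α1 subunit of Na/K-ATPase is held to signal. They were taken by gene name from a table of sequencing read counts per gene, and all 10 were found among the 54532 genes listed. They are the Src family kinase genes Src, Yes1 and Fyn, the receptor gene Egfr, the adaptor gene Shc1, the caveolin genes Cav1, Cav2 and Cav3, and the cavin genes Cavin1 and Cavin4. RNA was measured in whole hearts of 3-month-old mice on a C57BL/6 background, described by the study as male for the sensitive genotype and age-matched for the other. Hearts 1, 2 and 3 of the α1r/rα2s/s genotype, called resistant, came from mice 368, 369 and 370. Hearts 1, 2 and 3 of the α1s/sα2s/s genotype, called sensitive, came from mice 379, 380 and 381. The resistant hearts carry the rodent α1, which binds cardiotonic steroids such as ouabain weakly, and the sensitive hearts carry an α1 with amino acid substitutions that raise this affinity. Both genotypes carry the steroid-sensitive α2, the labels name no treatment, and the substitutions are present in every tissue of the mouse rather than in the myocyte alone.

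Na/K-ATPase exchanges intracellular sodium for extracellular potassium, and a pool of it is also proposed to act as a receptor. In that model the α1 subunit holds the kinase Src in caveolae, which are small invaginations of the plasma membrane, and binding of a cardiotonic steroid releases the kinase activity. Src then activates the epidermal growth factor (EGF) receptor, and the adaptor Shc recruits Grb2 and Sos to switch on Ras, the mitogen-activated protein kinases (MAPK) and the production of reactive oxygen species. Caveolae are built from caveolins, which insert into the membrane, and cavins, which coat them from the cytosol. Cav1 and Cav2 are abundant in endothelial cells, fibroblasts and adipocytes, while Cav3 and Cavin4 are the muscle forms. Most of this signalling runs through phosphorylation and protein binding, which counts of RNA do not measure.

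The total count was 19309312 to 20470065 per heart. The defining cardiomyocyte markers Myh6, Actc1, Tnnt2, Tnni3, Myl2, Myl3, Ryr2 and Mybpc3 together had 49190 to 60890 CPM in each heart, where CPM is the count scaled to the normalized library size of the heart. Resistant heart 2 and sensitive heart 3 stood at the ends of the endothelial, fibroblast and macrophage marker lists. The 10 endothelial markers summed to 1326 CPM in resistant heart 2 and to 998.7 CPM in sensitive heart 3, and the 7 macrophage markers to 430.5 and 243.9 CPM. Globin and other erythroid genes reached 3183 CPM in sensitive heart 2, against 401 to 1270 CPM in the other hearts. The share of mitochondrially encoded counts was 23.4% to 24.4% in resistant hearts and 25.0% to 26.0% in sensitive hearts. The 6 adipocyte markers summed to 1.05 to 1.96 CPM in resistant hearts and to 1.865 to 4.26 CPM in sensitive hearts. Of these markers 3 passed the filter on low counts, and all 3 were higher on average in sensitive hearts, while 51.6% of all tested genes were lower. None of the 3 passed an adjusted p under 0.05 in edgeR. The 7 skeletal muscle markers summed to 0.263 to 1.04 CPM. The adipocyte genes Lep and Ucp1 and the skeletal muscle genes Myh4 and Myog had at most 3 counts over all hearts. Gene counts do not reveal the α1 substitutions, and the genotypes rest on the labels alone.

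All 10 genes were expressed, and their levels spanned a wide range. Levels were compared between genes as CPM per kilobase of gene model, given as the mean ± SD over the 6 hearts. Cavin1, whose protein coats caveolae in every cell type that has them, had 75.4 ± 3.59 CPM per kilobase, and Cav1 had 73.8 ± 4.73. Cavin4, the muscle cavin, followed with 65.0 ± 4.28. The hearts of Cavin1 and Cav1 overlapped, as did those of Cav1 and Cavin4, so the place of Cav1 among these 3 was not resolved, while Cavin1 lay above Cavin4 in every heart. Cav3, the muscle caveolin, had 31.6 ± 1.42 CPM per kilobase and Cav2, a partner of Cav1 in mixed oligomers, 23.5, with hearts from 20.3 to 26.3. The signalling proteins were encoded by rarer RNAs. Fyn had 11.1 ± 0.795 CPM per kilobase, Shc1 6.23 ± 0.450 and Yes1 4.79 ± 0.471. Src had 0.993 ± 0.206 and Egfr 0.901 ± 0.143 CPM per kilobase, and these last 2 genes overlapped across hearts. From Cavin4 down to Src, each gene lay above the next in all 6 hearts. The order between genes also depends on the gene model lengths. These are the same for every heart and were not checked against the RNAs expressed, so agreement between hearts does not test them.

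**Figure D1:**
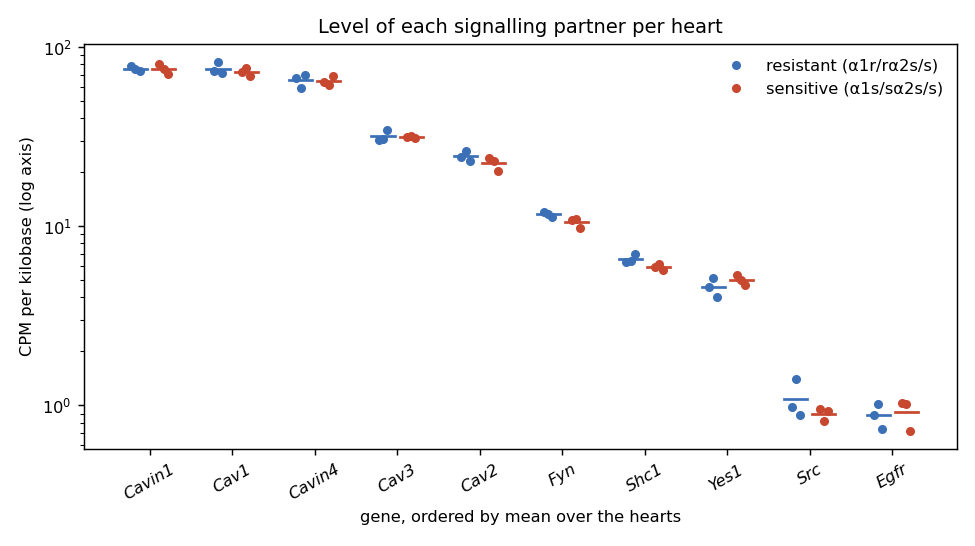
Each point is 1 heart, in CPM per kilobase on a log axis, with resistant hearts in blue, sensitive hearts in red and a bar at the mean of 3 hearts. The caveolin and cavin genes sit above the signalling genes, from 75.4 CPM per kilobase for Cavin1 to 0.901 for Egfr, and the genotypes overlap in all genes but Fyn and Shc1.

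The comparison of genotypes asks whether the RNA of these signalling partners differs when α1 binds cardiotonic steroids more tightly. With edgeR's quasi-likelihood test and a threshold of 0.05 on the adjusted p, 0 of the 10 genes were called, against 1.44% of the 14866 tested genes. None had an unadjusted p under 0.05 either, a limit passed by 14.5% of the tested genes, and in the lower direction by 7.27%. DESeq2 also called 0 of the 10, beside 3.89% of the genes to which it gave an adjusted p. All 10 genes passed the filter on low counts. Fold changes here are sensitive over resistant on the log2 scale, with 95% intervals that use edgeR's spread between hearts. They ran from -0.28 in Src to 0.13 in Yes1, with a median of -0.04 beside -0.01 over all tested genes. The fold change was below 0 in 8 of the 10 genes and in 51.6% of all tested genes. The hearts of the genotypes did not overlap in 2 genes, Fyn and Shc1, both lower in sensitive hearts, and such a gap downward was found in 9.98% of the tested genes. A gap in either direction was found in 20% of the tested genes, the same share as in the 10. The hearts are separate animals, so the p-values measure the spread between animals.

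**Figure D2:**
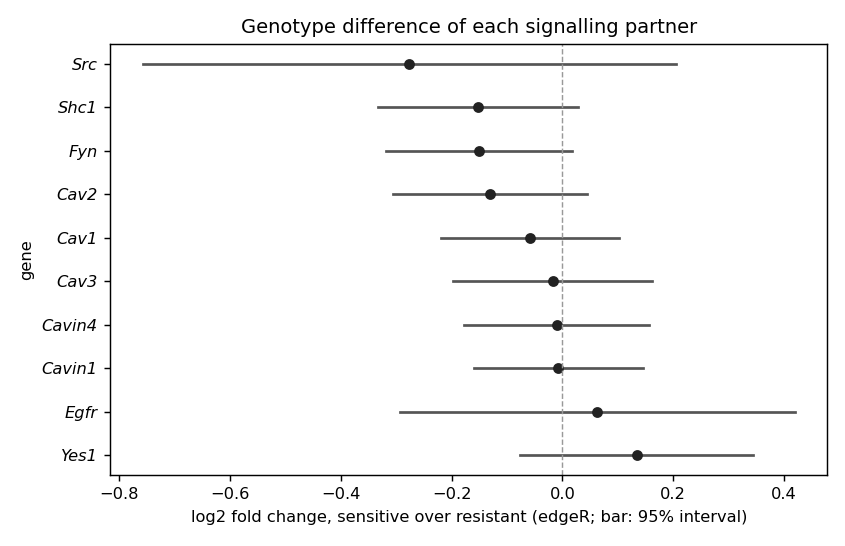
Points are log2 fold changes of sensitive over resistant hearts from edgeR, with 3 hearts per genotype, and bars are their 95% intervals. Every interval includes 0, and it is widest for Src (-0.76 to 0.20) and narrowest for Cavin1 (-0.16 to 0.15).

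Among the kinases, Fyn was the most abundant and Src the least. Src (ENSMUSG00000027646, chr2:157418444-157471862 of GRCm38), the kinase named in the Na/K-ATPase model, had 90, 128 and 77 counts in resistant hearts and 84, 68 and 78 in sensitive hearts. The genotypes overlapped, and resistant heart 2 lay above all other hearts. The log2 fold change of Src was -0.28 (standard error 0.23, 95% interval -0.76 to 0.20, adjusted p = 0.622). Without resistant heart 2 it was -0.05.

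Yes1 (ENSMUSG00000014932, chr5:32611171-32687057), a ubiquitous Src family kinase, had 718, 806 and 603 counts in resistant hearts and 812, 711 and 683 in sensitive hearts. Resistant heart 3 was the lowest and sensitive heart 1 the highest, with overlap between the genotypes. Its log2 fold change was 0.13 (standard error 0.10, 95% interval -0.08 to 0.34, adjusted p = 0.572). It was 0.23 without resistant heart 2 and 0.056 without resistant heart 3. Fyn (ENSMUSG00000019843, chr10:39368855-39565381), a Src family kinase with roles in adhesion and lymphocyte signalling, had 1103, 1074 and 977 counts in resistant hearts and 955, 907 and 824 in sensitive hearts. Every resistant heart lay above every sensitive heart, also in CPM, with means of 50.9 ± 1.80 and 45.9 ± 2.78 CPM (SD, n = 3). The log2 fold change of Fyn was -0.15 (standard error 0.08, 95% interval -0.32 to 0.02), with an adjusted p of 0.397 in edgeR and 0.487 in DESeq2. Antisense and other genes that overlap Fyn had at most 4.37% of its counts in any heart, and those that overlap Yes1 at most 5.15%. The strand setting of the counting was not given, so reads of a gene and of its antisense partner cannot be told apart.

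The balance between the 3 kinases was taken per length in each heart. Fyn made up 68.5%, 64.3% and 69.6% of their summed level in resistant hearts and 63.2%, 65.3% and 63.5% in sensitive hearts. Yes1 made up 25.9%, 28.0% and 24.9% in resistant hearts and 31.2%, 29.8% and 30.6% in sensitive hearts. The share of Yes1 was thus higher in each sensitive heart than in any resistant heart, with means of 26.3% ± 1.58 and 30.5% ± 0.735 (SD, n = 3). Src contributed 6.23% ± 1.23 and 5.48% ± 0.556 (SD, n = 3), with overlap. This share is a description, since it was 1 of 16 ratios and shares examined and 3 of them did not overlap. Among single genes, 20% of all tested genes did not overlap. These 3 are built from the same kinase levels and all contain Yes1, so they are not separate results. An exact permutation test of 3 hearts against 3 cannot give a two-sided p under 0.1.

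Egfr (ENSMUSG00000020122, chr11:16752203-16918158), the receptor that Src transactivates in the model, had 209, 243 and 167 counts in resistant hearts and 235, 218 and 158 in sensitive hearts. The genotypes overlapped, and in CPM sensitive heart 1 was the highest and sensitive heart 3 the lowest. The log2 fold change was 0.06 (standard error 0.17, 95% interval -0.29 to 0.42, adjusted p = 0.903), and it was below 0 in 3 of 6 refits, each without another heart. Shc1 (ENSMUSG00000042626, chr3:89418443-89430027), which couples the receptor to Grb2 and also encodes the p66 form linked to mitochondrial oxidants, had 746, 756 and 787 counts in resistant hearts and 673, 656 and 621 in sensitive hearts. The genotypes did not overlap, with means of 37.0 ± 2.13 and 33.3 ± 1.15 CPM (SD, n = 3). The log2 fold change of Shc1 was -0.15 (standard error 0.08, 95% interval -0.33 to 0.03), with an adjusted p of 0.429 in edgeR and 0.539 in DESeq2. It was -0.099 without resistant heart 3. Counts per gene do not separate the Shc1 forms.

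Of the caveolin genes, Cav1 and Cav2 are neighbours on chromosome 6 of GRCm38, at 17306335 to 17341452 and 17281185 to 17289115, with 17219 bases between them. Cav3 lies farther along the same chromosome, at 112459505 to 112472872, and Cavin4 is on chromosome 4 at 48663514 to 48673502. The promoter windows of these 4 genes are shown because Cav1 with Cav2, and Cavin4, had unlike patterns across hearts, described below. Each runs from 250 bases before to 50 bases after the start site, 5′ to 3′, as given by RefSeq on GRCm38.p6, where all 10 genes were matched. The windows are chr6:17306085-17306384, chr6:17280935-17281234, chr6:112459255-112459554 and chr4:48663264-48663563, all on the plus strand, and the first of 2 starts was taken for Cav1. Capitals mark matches on either strand to the GC box GGGCGG, the TATA box TATAAA, the CCAAT box CCAAT and the E-box CANNTG.
Cav1: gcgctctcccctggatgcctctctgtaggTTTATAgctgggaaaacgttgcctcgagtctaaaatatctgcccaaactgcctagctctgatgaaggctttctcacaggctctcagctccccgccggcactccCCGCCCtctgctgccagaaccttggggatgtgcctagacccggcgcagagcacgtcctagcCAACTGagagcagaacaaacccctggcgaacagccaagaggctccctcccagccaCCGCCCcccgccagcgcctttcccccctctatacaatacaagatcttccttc
Cav2: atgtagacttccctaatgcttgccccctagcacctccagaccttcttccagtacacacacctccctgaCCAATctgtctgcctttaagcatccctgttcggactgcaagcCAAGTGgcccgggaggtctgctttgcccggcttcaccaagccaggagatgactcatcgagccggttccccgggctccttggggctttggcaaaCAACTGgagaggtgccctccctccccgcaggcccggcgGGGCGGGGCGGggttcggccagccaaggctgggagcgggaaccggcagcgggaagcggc
Cav3: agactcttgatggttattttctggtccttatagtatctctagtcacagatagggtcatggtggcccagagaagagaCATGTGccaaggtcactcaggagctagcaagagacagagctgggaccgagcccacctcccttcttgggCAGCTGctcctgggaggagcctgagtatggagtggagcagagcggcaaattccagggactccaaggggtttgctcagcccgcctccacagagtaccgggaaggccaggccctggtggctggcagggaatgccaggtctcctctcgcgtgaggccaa
Cavin4: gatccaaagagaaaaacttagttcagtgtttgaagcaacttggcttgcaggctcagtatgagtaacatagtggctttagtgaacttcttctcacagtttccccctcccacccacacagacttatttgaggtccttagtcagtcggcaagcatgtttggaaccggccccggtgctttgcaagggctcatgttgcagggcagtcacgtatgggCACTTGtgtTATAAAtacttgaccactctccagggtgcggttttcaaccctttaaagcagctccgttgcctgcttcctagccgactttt
The windows of Cav1 and Cav2 held 2 GC boxes each, overlapping each other in Cav2, and those of Cav3 and Cavin4 held 0. A GC box was present in 35.7% of the 32851 windows in the table. Cavin4 had a TATA box starting 30 bases before its start site, and Cav1 had one 221 bases before it. The TATA box letters occurred in 13.6% of all windows. Each of the 4 windows had at least 1 E-box, as did 72.3% of all windows, and Cav2 alone among the 4 had a CCAAT box, found in 37.4% of all windows. The content of G and C was 59.3% in Cav1, 64.3% in Cav2, 58% in Cav3 and 48.7% in Cavin4, against a median of 52.7%. These are letter matches and say nothing of binding in these hearts.

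Cav1, the scaffold caveolin of non-muscle caveolae, had 251, 282 and 245 CPM in resistant hearts and 248, 263 and 236 CPM in sensitive hearts. The ranges overlapped, and the log2 fold change was -0.06 (standard error 0.08, 95% interval -0.22 to 0.10, adjusted p = 0.776). Cav2 had 81.0, 87.9 and 76.5 CPM in resistant hearts and 79.7, 76.9 and 67.6 CPM in sensitive hearts. Sensitive heart 3 was the lowest for both Cav1 and Cav2. The log2 fold change of Cav2 was -0.13 (standard error 0.08, 95% interval -0.31 to 0.04, adjusted p = 0.494). It was -0.073 without resistant heart 2 and -0.062 without sensitive heart 3. Cav3 had 35.0, 35.5 and 39.6 CPM in resistant hearts and 36.5, 36.6 and 35.7 CPM in sensitive hearts, with all 3 sensitive hearts inside the resistant range. Its log2 fold change was -0.02 (standard error 0.08, 95% interval -0.20 to 0.16, adjusted p = 0.948). Per length, Cav1 made up 57.2% ± 1.76 of the caveolin RNA in resistant hearts and 57.3% ± 0.909 in sensitive hearts, and Cav3 24.2% ± 2.33 and 24.9% ± 0.838 (SD, n = 3).

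The log2 fold changes nearest to 0 were those of the cavins. Cavin1 (ENSMUSG00000004044, chr11:100956733-100970887, minus strand) had 280.1, 271 and 262 CPM in resistant hearts and 288, 269 and 252 CPM in sensitive hearts, and the sensitive hearts spanned the resistant range. Its log2 fold change was -0.01 (standard error 0.07, 95% interval -0.16 to 0.15, adjusted p = 0.974), which as a percent runs from -10.5% to 10.6%. Cavin4 had 137, 121 and 144 CPM in resistant hearts and 131, 127 and 141 CPM in sensitive hearts. Its log2 fold change was -0.01 (standard error 0.08, 95% interval -0.18 to 0.16, adjusted p = 0.967). As percent changes, the intervals of Cavin1, Cavin4 and Cav3 all lie between -12.8% and 11.8%. The ratio of Cavin1 to Cav1 per length was 1.01 ± 0.0754 in resistant hearts and 1.04 ± 0.0690 in sensitive hearts (SD, n = 3). The ratio of Cavin4 to Cav3 was 2.06 ± 0.142 and 2.07 ± 0.149 (SD, n = 3).

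Within each genotype the genes varied from heart to heart. Centred on the mean of its own genotype, the log2 CPM of Cav1 was 0.12 in resistant heart 2 and -0.08 in sensitive heart 3. That of Cav2 was 0.11 and -0.14 in these hearts. On log2 CPM centred on the mean of the 6 hearts, Cav1 was at 0.15 in resistant heart 2 and at -0.11 in sensitive heart 3, and Cav2 at 0.17 and -0.21 in the same hearts. The root mean square difference between Cav1 and Cav2 over the 6 hearts was 0.0658. The smallest of the 45 pairs was that of Fyn and Cav2, at 0.0563. Cavin4 ran the other way, with its lowest value, -0.14, in resistant heart 2. The ratio of Cavin4 to Cav1 per length was 0.915, 0.721 and 0.984 in resistant hearts and 0.886, 0.806 and 1.01 in sensitive hearts. Both genotypes thus held hearts with a low and with a high ratio.

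Cell type markers shared part of this pattern. On the same centred log2 scale, the summed endothelial markers were at 0.17 in resistant heart 2 and at -0.24 in sensitive heart 3. The summed fibroblast markers were at 0.19 and -0.20 in these hearts, and both lists were close to Cav2 there. The macrophage markers were at 0.48 and -0.34. Cav1 was at -0.02 in resistant heart 1, where the endothelial markers were at 0.10. The summed cardiomyocyte markers were lowest in resistant heart 2, at -0.17, and highest in resistant heart 3, at 0.14. Cavin4 was at 0.11 and Cav3 at 0.12 in resistant heart 3. Cav3 was at -0.04 in resistant heart 2 and at -0.03 in sensitive heart 3, where the cardiomyocyte markers were at 0.10. The endothelial list had all 10 genes tested, of which 7 had a fold change below 0 and 0 were called, and its sum ranged from 1136 to 1326 CPM in resistant hearts and from 998.7 to 1210 CPM in sensitive hearts. The cardiomyocyte list had 8 of 8 tested, 7 with a fold change above 0 and 0 called, with 49190 to 60890 and 54520 to 59320 CPM. Of all tested genes, 51.6% had a fold change below 0. No marker of the endothelial or the cardiomyocyte list had a level at or near 0. In whole hearts, fewer cells of a type and less RNA per cell cannot be told apart, and the part of cell makeup in the values of Cav1, Cav2 and Cavin4 was not tested.

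**Figure D3:**
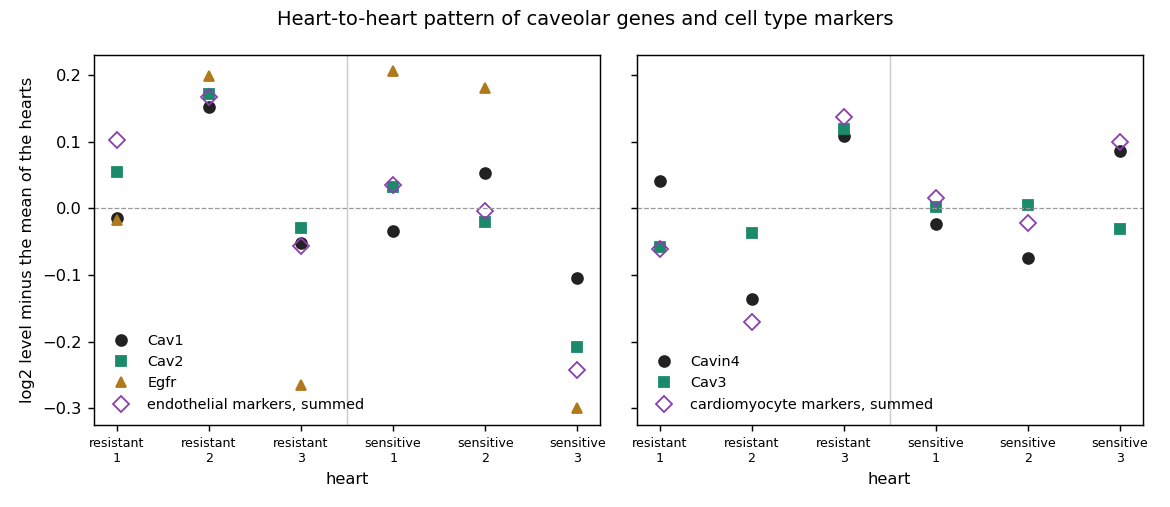
Each symbol is the log2 level of a gene or of a summed marker list in 1 heart, minus the mean of the 6 hearts, with resistant hearts left of the grey line. Cav1, Cav2 and the endothelial markers are high in resistant heart 2 and low in sensitive heart 3, while Cavin4 and the cardiomyocyte markers are lowest in resistant heart 2. In resistant heart 1 the endothelial markers are at 0.10 and Cav1 at -0.02, and Cav3 has its lowest value there.

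The wider pathway was read from 8 lists of genes that are not members, with 137 genes in all, of which 123 were tested. edgeR called 3 of them, 1 higher and 2 lower in sensitive hearts, beside 0.78% and 0.659% of all tested genes. DESeq2 called 6, beside 3.89% of all genes to which it gave an adjusted p. The lists were chosen with earlier results of these data known, so their counts are a description and not a test. The list of the caveola coat, its neck and its link to actin had 14 of 15 genes tested, with 2 called lower, 0 called higher and a median log2 fold change of -0.13. Flna, which encodes filamin A, an actin crosslinker that binds Cav1, had 192, 181 and 177 CPM in resistant hearts and 137, 156 and 138 CPM in sensitive hearts. It fell without overlap, by 0.35 on the log2 scale (standard error 0.07, adjusted p = 0.0289 in edgeR). Fblim1, which encodes the filamin-binding protein migfilin, had 224, 230 and 266 CPM in resistant hearts and 190.1, 185 and 192 CPM in sensitive hearts. It fell by 0.34 on the log2 scale (standard error 0.08, adjusted p = 0.0359 in edgeR). Neither gene encodes a part of the caveolar coat itself. In this list 11 of the 14 tested genes had a fold change below 0, beside 51.6% of all tested genes. The genotypes did not overlap in 42.9% of the list, 5 genes lower and 1 higher, beside 20% of all tested genes. Ehd1, an ATPase of membrane recycling, was higher in each sensitive heart than in any resistant heart, at 0.27 on the log2 scale, with an adjusted p of 0.0828 in edgeR and 0.0254 in DESeq2. The coat genes Cavin2 and Cavin3 and the neck gene Ehd2 were at -0.14, -0.15 and -0.10 on that scale (adjusted p = 0.396, 0.595 and 0.681 in edgeR). These 4 genes are named outside the rule for named genes, after their values were seen.

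Filamin A is also abundant in smooth muscle. Of the 7 smooth muscle and pericyte markers, all tested, 0 were called in edgeR and DESeq2 called Acta2 (adjusted p = 0.0325). All 7 markers had a fold change below 0, beside 51.6% of all tested genes, and the median log2 fold change of the list was -0.33. Rgs5, which makes up most of the summed level, had means of 749 and 748 CPM, and Tagln had only 6 to 18 counts per heart. The sum ranged from 941 to 1028 CPM in resistant hearts and from 861 to 988 CPM in sensitive hearts, with overlap. Fblim1 was highest in resistant heart 3, where the marker sum was the lowest of the resistant hearts. Acta2, a smaller part of that sum, was also highest in resistant heart 3, at 78.6 CPM. The part of smooth muscle in the fall of Flna and Fblim1 was not tested. Flna lost its call without resistant heart 1 or 2 or sensitive heart 1 or 3 (adjusted p = 0.153, 0.0666, 0.107 and 0.0894), and Fblim1 lost it without any one of the 6 hearts (adjusted p = 0.0595 to 0.126).

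The list of caveolar cargo and raft genes had all 15 tested, with 1 called higher, 0 lower and a median log2 fold change of -0.01. The fold change was below 0 in 8 of the 15, beside 51.6% of all tested genes. The genotypes did not overlap in 33.3% of this list, 5 genes higher and 0 lower, beside 20% of all tested genes. An unadjusted p under 0.05 in edgeR was found in 5 genes, all higher, beside 14.5% of all tested genes in either direction. Adcy6, an adenylyl cyclase found in caveolae, had 164, 141 and 182 CPM in resistant hearts and 208, 219.6 and 231 CPM in sensitive hearts. It rose by 0.44 on the log2 scale (standard error 0.09, adjusted p = 0.0241 in edgeR, 9.24e-05 in DESeq2). The call of Adcy6 was lost without resistant heart 1 or 2 or sensitive heart 2 or 3, with adjusted p of 0.0799, 0.0716, 0.0678 and 0.0713. DESeq2 alone also called Cd36, the fatty acid transporter (log2 fold change 0.22 in DESeq2, adjusted p = 0.00837), which is likewise named outside the rule.

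Around the kinases, the receptor and the adaptor no gene passed in edgeR. For the counts that follow, 14.5% of all tested genes had an unadjusted p under 0.05. The Src family and regulator list had 21 of 22 genes tested, with 0 called, 2 with an unadjusted p under 0.05 and a median log2 fold change of -0.07. Its smallest p were those of Blk, a lymphoid Src family kinase, at -0.55 on the log2 scale with an adjusted p of 0.162, and Bcar1, a Src substrate of focal adhesions, at -0.21 with an adjusted p of 0.330. The list of the EGF receptor family, its ligands and adaptors had 22 of 26 tested, 0 called, 0 with an unadjusted p under 0.05 and a median of -0.05. Its smallest p were those of the sheddases Adam10 and Adam17, which release ligands. Their values were -0.14 and -0.13 on the log2 scale, with an adjusted p of 0.461 and 0.501. The ligand genes Areg, Ereg, Epgn and Nrg3, were too low to be tested. The relay of Ras, MAPK, phosphatidylinositol 3-kinase (PI3K), calcium and protein kinase C had 26 of 26 tested, 0 called and 10 with an unadjusted p under 0.05, 6 higher and 4 lower, with a median of 0.01. Map2k2, a MAPK kinase, stood at 0.21 and Prkca, protein kinase Cα, at -0.25 on the log2 scale, with an adjusted p of 0.184 and 0.210.

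Genes that MAPK activity is known to induce or that feed back on it went both ways, 6 higher and 5 lower. Of 12, 11 were tested, with 0 called in edgeR and a median of 0.03. An unadjusted p under 0.05 in edgeR was found in 4 of them, beside 14.5% of all tested genes. Of these, 1 was higher and 3 were lower in sensitive hearts, and 7.27% of all tested genes passed this limit in the lower direction. Etv5, a transcription factor, had 16.2 ± 2.34 CPM in resistant hearts and 22.2 ± 1.78 CPM in sensitive hearts (SD, n = 3). Its fold change on the log2 scale was 0.45, with an adjusted p of 0.0809 in edgeR and 0.0449 in DESeq2. Dusp6, a phosphatase that inactivates the kinase ERK, went the other way, with 25.0 ± 3.34 and 17.7 ± 4.13 CPM (SD, n = 3). Its value was -0.50 on the log2 scale, with an adjusted p of 0.125 in edgeR. Of 14 NADPH oxidase genes, which produce superoxide, 9 were tested and 0 called, and the median was -0.33. The fold change was below 0 in 8 of them, beside 51.6% of all tested genes. Ncf1 and Duox1 had the smallest p and stood at -0.43 and -0.79 on the log2 scale, with an adjusted p of 0.334 and 0.458. Cybb and Ncf1 are macrophage genes too, and 6 of the 7 macrophage markers had a fold change below 0, with summed levels of 274 to 430.5 CPM in resistant and 244 to 303 CPM in sensitive hearts. Of these markers 0 were called in edgeR, and DESeq2 called Mrc1. Its log2 fold change was -0.52, with an adjusted p of 0.0549 in edgeR and 0.00626 in DESeq2. The part of macrophages in the oxidase values was not tested.

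**Figure D4:**
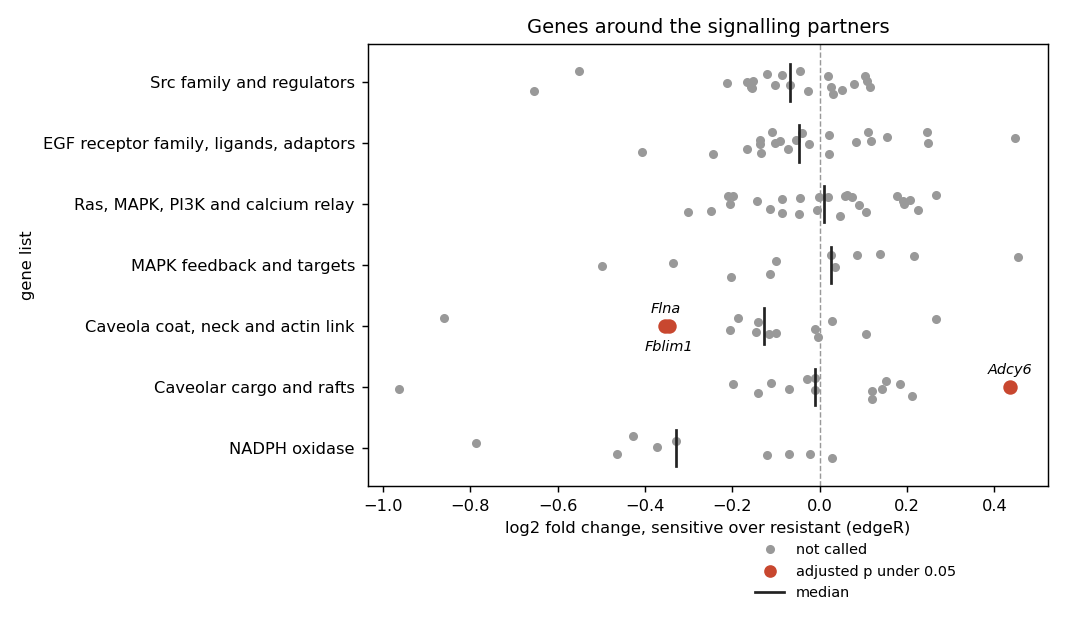
Each point is a tested gene of one of the lists described, placed by its log2 fold change of sensitive over resistant hearts, with the median of the list as a bar. Flna and Fblim1 on the lower side and Adcy6 on the higher side, in red, had an adjusted p under 0.05 in edgeR.

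The genes with the most similar pattern over the 6 hearts were sought for 1 gene per role, among tested genes whose mean log2 CPM was 3 or more, by the root mean square difference of centred log2 CPM. For Cav1 they were Ostf1, Slc30a7 and Zeb1, with differences of 0.0193, 0.0230 and 0.0237, where the median gene was at 0.148. For Cav3 they were Fam96a, Prkaa2 and Arhgap35, at 0.0105, 0.0168 and 0.0173. Lrrc14, Asb7 and Mpdu1 were nearest to Egfr, at 0.0468, 0.0513 and 0.0535. S100a6, Slc36a1 and Amot were nearest to Src, at 0.0825, 0.0839 and 0.0851. The root mean square of the centred values themselves was 0.24 for Src, 0.214 for Egfr, 0.0828 for Cav1 and 0.0578 for Cav3. A gene that varies little is thus near to any other such gene, and the differences cannot be compared between these genes. The genes named were the nearest of 9085 or 9086 genes, and the measure has no test.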

How the data were processed

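RNA of 6 whole hearts, 3 per genotype, was sequenced on an Illumina instrument. The authors deposited raw counts per gene, made by a sequencing company. The submitters' processing notes name fastp, STAR, featureCounts and mm10. Versions and the strand setting are not given in the sources used here. The gene model lengths in bases are those deposited with the counts. A deposited table of the authors' own DESeq2 comparison (its fold changes and p-values) was not used.

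Counts were analysed in R 4.3.3 with edgeR 4.0.16, after filterByExpr at a count of 10 and a total of 15. Libraries were scaled by TMM. The 14866 genes kept were given quasi-likelihood p-values, adjusted by Benjamini and Hochberg's method, with a threshold of 0.05. Standard errors are the fold change divided by the root of F. The log2 CPM used a prior count of 2. This depth left Src with 68 to 128 counts per heart and Cav1 with 4554 to 5911. The scripts were tested on simulated counts. The members and lists were chosen with earlier results of these data known. Named genes were the 10 members, the called genes of each list or else its 2 smallest p, and the 3 genes most alike to Src, Egfr, Cav1 and Cav3. Genes named outside this rule are said to be so in the text. Alternatives were DESeq2 1.42.0, other scalings, filters and prior, and leaving out each heart. The genes of 1 of the 8 pathway lists are counted in the totals over the lists and are otherwise not reported here.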

Additional observations from a re-analysis of the deposited data

How the results depend on the processing

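None of the 10 genes passed an adjusted p under 0.05 under any of the 13 alternatives, and the lowest adjusted p in any of them was 0.36. The median of their log2 fold changes stayed between -0.07 and -0.03. Src, Yes1, Fyn, Shc1 and Cav2 had the same sign under all 13. The sign turned in 11 of the 130 values, each time in a fit that left out one heart. In those fits the log2 fold change ranged from -0.043 to 0.21 for Egfr, from -0.096 to 0.0095 for Cav1, from -0.048 to 0.044 for Cav3, from -0.055 to 0.040 for Cavin1 and from -0.074 to 0.047 for Cavin4. Over all genes, 214 were called, 618 without a filter on low counts, 409 in DESeq2, and 80 to 158 when one heart was left out. Of the pathway list genes, 3 were called, 7 without a filter, 6 in DESeq2, and 0 to 3 when one heart was left out. The fits without one heart have fewer samples, and the cause of the other changes was not tested. No paired analysis was possible because the labels give every heart a mouse number of its own. Src had the fewest counts of the 10 genes and the widest interval, and resistant heart 2 stood apart in it.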
